A study of Caenorhabditis elegans with 2 samples.

Results

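The core promoter peaks outside X were 384 binding peaks of the tagged zinc finger protein Y56A3A.18 in young adult Caenorhabditis elegans, out of 1687 peaks in the conservative list of both replicates. Of the 384, 42 (10.9%) overlapped another of them, so some sites are counted more than once in the shares and intervals. A peak was included when it lay on an autosome, when its summit fell from 500 bp upstream to 200 bp downstream of the annotated 5' end of a protein-coding gene read along that gene's strand, and when the summit was more than 200 bp from every tRNA, snRNA and snoRNA gene. The rule used position alone and no measured strength. Of the 1091 autosomal peaks away from these small RNA genes, 384 (35.2%) lay in such a window, and the others were 392 in gene bodies and 315 between genes. The 384 peaks placed a summit in the window of 425 of the 17242 autosomal protein-coding genes, which is 2.46% and the background for every gene group given here.

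Both samples came from one strain, RW12265, whose allele st12265[Y56A3A.18::TY1::EGFP::3xFLAG] III is a CRISPR insertion that puts EGFP and epitope tags on Y56A3A.18 (also called znf-593), so the series has 1 group of 2 biological replicates and no second genotype. The worms were bleached, arrested by starvation as L1 larvae and grown to young adults of 63 h, and chromatin of the whole organism was sonicated and precipitated with an antibody against GFP. All tissues were therefore mixed, and a signal cannot be assigned to a cell type. A control experiment named in the labels was not analysed here, the depth of the libraries is unknown, and whether the 2 replicates were separate cultures is not said beyond the word biological.

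In C. elegans many genes lie close together on the chromosome. Some pairs are divergent, with starts head to head on opposite strands and a shared stretch of DNA between them; others are tandem, with a gene starting soon after the end of its neighbour on the same strand, and some of these are transcribed together as operons. Because most worm transcripts are trimmed by trans-splicing to a short leader, the annotated 5' end is often the splice site and the true start of transcription lies upstream of it. The zinc finger protein tagged here is named for the human protein ZNF593, whose counterpart in budding yeast acts in the assembly and export of the large ribosomal subunit.

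The windows around the strongest summits are shown first because they carry the highest signals of the group. Each runs from 50 bases before to 50 bases past the summit, read 5' to 3' along the strand of the gene with the nearest start, from the RefSeq WBcel235 genome (ce11). Capitals mark the word AGACGC or its reverse complement GCGTCT, which was found in the window of F44E5.4.
rpl-3 (chrIII:3867522-3867622, plus strand): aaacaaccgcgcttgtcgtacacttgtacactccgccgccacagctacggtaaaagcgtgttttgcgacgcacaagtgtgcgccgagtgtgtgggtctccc
F44E5.4 (chrII:11759419-11759519, minus strand): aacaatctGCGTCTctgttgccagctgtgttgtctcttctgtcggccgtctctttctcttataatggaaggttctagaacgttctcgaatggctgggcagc
Y55F3AR.2 (chrIV:1094313-1094413, plus strand): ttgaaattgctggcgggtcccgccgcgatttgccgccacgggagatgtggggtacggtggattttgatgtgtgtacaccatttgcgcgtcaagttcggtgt
rpl-15 (chrIV:654901-655001, minus strand): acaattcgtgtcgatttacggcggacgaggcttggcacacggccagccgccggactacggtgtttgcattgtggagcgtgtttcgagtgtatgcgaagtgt
Y17G9B.5 (chrIV:4750025-4750125, plus strand): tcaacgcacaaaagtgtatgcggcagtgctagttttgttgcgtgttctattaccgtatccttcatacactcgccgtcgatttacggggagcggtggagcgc
These windows had between 49.5% and 57.4% G or C, and each occurs once in the genome. None of them holds the spaced word described next.

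The second set is shown because a longer spaced word recurs in it close to the summit. It is GCTNNCGC, in which N is any base, followed after 2 free bases by TTCNCG, and it was searched on both strands within 50 bases of the summit. Each line gives 44 bases read along the strand of the word, with the complete word in capitals. These 7 are among the strongest carriers on chromosomes II to V.
fbxl-2 (chrIII:4757181-4757224, plus strand): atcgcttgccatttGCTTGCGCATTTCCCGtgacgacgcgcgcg
fbxb-85 (chrIII:10849038-10849081, minus strand): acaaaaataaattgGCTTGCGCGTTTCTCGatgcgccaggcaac
W03F8.4 (chrIV:5183854-5183897, plus strand): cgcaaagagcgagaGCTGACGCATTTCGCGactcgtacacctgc
smr-1 (chrIII:1143002-1143045, plus strand): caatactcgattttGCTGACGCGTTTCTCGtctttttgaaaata
Y94H6A.3 (chrIV:2676459-2676502, minus strand): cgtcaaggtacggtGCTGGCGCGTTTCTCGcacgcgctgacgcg
C27F2.9 (chrIII:4963069-4963112, minus strand): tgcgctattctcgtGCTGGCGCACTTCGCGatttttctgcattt
cyn-1 (chrV:14355929-14355972, minus strand): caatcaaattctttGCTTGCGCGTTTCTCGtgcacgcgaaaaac
The first 8 of the 16 capitals fit GCTNNCGC, and the CGC inside it with the bases that follow makes up the right-hand part of the word. The genes next to these words differ in role. fbxl-2 and fbxb-85 encode F-box proteins, smr-1 a Tudor domain protein, W03F8.4 a subunit of the KEOPS complex that modifies tRNAs, Y94H6A.3 a protein named PRP16, C27F2.9 a JmjC domain protein, and cyn-1 a peptidyl-prolyl isomerase, by their RefSeq product names.

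The core promoter peaks held the short spaced word GCTNNCGC in 52 of 384 summit windows, which run from 50 bases before to 50 bases past the summit (13.5%, exact 95% interval 10.3 to 17.4%, which like all intervals here covers the counting of peaks or genes only). The same search found it in 9 of 768 windows centred 300 bp to either side (1.17%), in 18 of 707 windows at the autosomal gene body and intergenic peaks (2.55%), and in 223 of 17242 promoter windows of the same length, centred at the median offset of the peaks (1.29%). Peaks of the same core promoter windows that were ranked but did not pass the threshold of the conservative list held it in 210 of 10668 cases (1.97%). The word and its longer forms were chosen after many words had been inspected in these very windows, so the shares describe them and test nothing. In the lists made from a single replicate the share was 22.5% for replicate 1 and 19.7% for replicate 2. It was in 22 of 151 summit windows on II and IV and in 30 of 233 on the other autosomes.

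The longer forms were rarer. The right-hand part, CGC followed after 2 free bases by TTCNCG, was in 29 of 384 summit windows (7.55%) and in 0 of 768 flanking windows, against 60 of 17242 promoters (0.348%). The complete word was in 15 of 384 summit windows (3.91%) and in 16 of 17242 promoters (0.0928%). The 2 free bases inside GCTNNCGC were not used evenly: GCTGGCGC was in 24 summit windows, GCTGACGC in 22 and GCTTGCGC in 14.

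The word lay close to the summit where it was found. It was read off words chosen for their excess in these summit windows over the windows 300 bp away. Its distances from the summit therefore describe it and test nothing. In the 52 windows that held it, the nearest word centre was a median of 11 bp from the summit, with quartiles of 5.5 and 19.75 bp. Within 20 bp of the summit 39 of 384 peaks (10.2%) had a word centre, against 1.56% or fewer in each 40 bp bin more than 60 bp away.

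**Figure D1:**
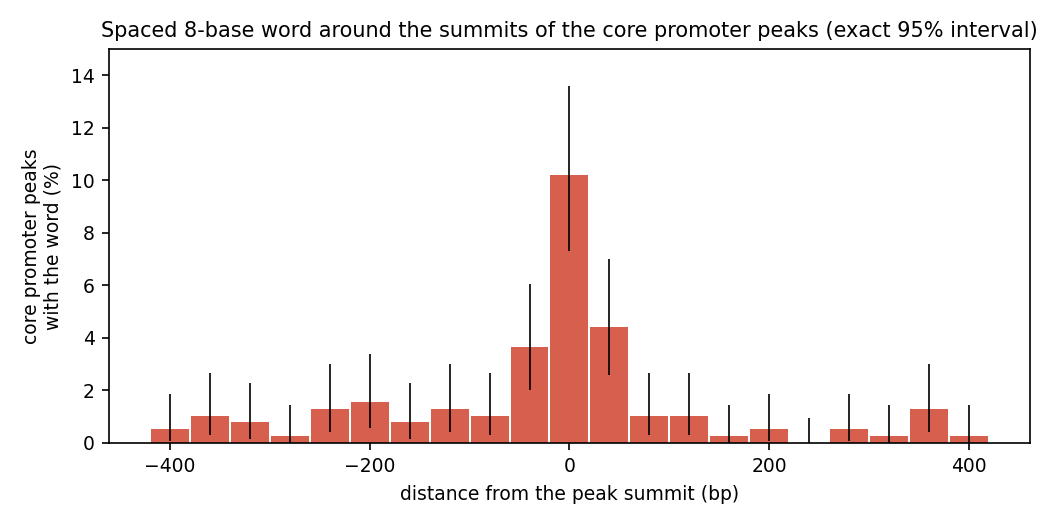
Share of the 384 core promoter peaks (percent, y axis) that have the centre of GCTNNCGC in each 40 bp bin of distance from the summit (bp, x axis), with exact 95% intervals. The bin around the summit stands at 10.2%, its neighbours at 3.65% and 4.43%, and the bins farther out at no more than 1.56%.

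Seen from the genes, the longer the word, the larger the share of genes with a summit. The longer forms were chosen in the summit windows of these same peaks, so this order describes them and tests nothing. Of the 1600 autosomal genes with GCTNNCGC anywhere in their core promoter window, 107 (6.69%) had a core promoter summit, against 2.03% of the genes without it. With the right-hand part the share was 47 of 308 (15.3%), and with the complete word 19 of 56 (33.9%, interval 21.8 to 47.8%), against 2.36% of the genes without the complete word. Most genes with GCTNNCGC in the window therefore had no summit there.

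Peaks with GCTNNCGC had a median pooled signal of 88.0, against 70.8 for the 332 peaks without it, and their highest was 179.7. Replicate 1 medians were 50.1 with the word and 38.4 without it, and replicate 2 medians were 40.6 with the word and 35.2 without it. The 2 sets overlap over most of their range, and the strongest peaks of all lack the word. In the thresholded lists made from each replicate alone, 22 of 52 carriers (42.3%) were found in both, against 63 of 332 peaks without the word (19%). Carriers were between genes in 80.8% of cases and upstream of the start in 86.5%, against 59.9% and 70.2% of the peaks without it.

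Among the carriers with known roles, ddp-1, which encodes the mitochondrial import factor Tim8, had signals of 179.7 pooled, 88.0 in replicate 1 and 80.4 in replicate 2. The shared promoter of nhr-47, a nuclear hormone receptor, and dnj-19, a DnaJ co-chaperone, had 172.8 pooled, 76.7 in replicate 1 and 84.1 in replicate 2. eif-3.C, a subunit of translation initiation factor 3, had 133.7 pooled, with 73.8 in replicate 1 and 64.8 in replicate 2. Other carriers stood at rpb-11, a subunit of RNA polymerase II, at pcn-1, the replication clamp PCNA, at tomm-20, a receptor of the mitochondrial outer membrane, and at cul-4, a cullin of a ubiquitin ligase. Of the 80 cytosolic ribosomal protein genes 18 (22.5%) had GCTNNCGC in the core promoter window, against 1600 of 17242 autosomal genes (9.28%). That count takes the word anywhere in the window, with or without a summit. Among the carriers, which have it at a summit, the only genes of the ribosomal protein lists were rpl-24.2 and rps-16. None of the 80 had the complete word, which 56 of 17242 genes (0.325%) had, so a count of 0 is near that background.

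Other words were counted by name in the same windows. AGACGC, taken up because of earlier results on these data, was in 11.2% of the summit windows, 2.60% of the flanks and 3.09% of all promoters. GAGAGA was in 13.8%, 6.64% and 8.55% of these windows, and CCGCCC in 6.25%, 1.04% and 2.75%. The run TTTTTTT was in 8.85% of summit windows, 18.0% of flanks and 24.9% of promoters, and TATAAA, the core of the TATA box, in 7.55%, 12.5% and 13.4%. The E-box CACGTG was in 2.86%, 1.17% and 2.11%, and TTTCAG, the usual acceptor of splicing in worms, in 16.9%, 23.7% and 14.7%. At the summits of the 707 gene body and intergenic peaks outside X, AGACGC was in 9.19%, GAGAGA in 16.3%, CCGCCC in 2.83%, TTTTTTT in 10.3%, TATAAA in 5.37%, CACGTG in 4.53% and TTTCAG in 13.6%. The shares of GAGAGA and CACGTG were thus higher there than at the core promoter summits, and that of CCGCCC was lower. The median share of G and C was 45.5% at the summits, 35.6% in the flanks and 32.7% in all promoters, and 42.6% at the gene body and intergenic summits. The part of base composition in the shares of these words was not tested. The ranked peaks of the same promoters that did not pass had 37.6%. By class the summits had 50.5% at divergent, 41.6% at close tandem and 46.5% at the remaining single starts.

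The strongest peak of the group stood at rpl-3, a protein of the large ribosomal subunit, at -282 bp from its start, where negative distances are upstream. Its pooled signal was 367.5, with 198.4 in replicate 1 and 175.0 in replicate 2. The peak between F44E5.4 and F44E5.5, a head-to-head pair of Hsp70 family genes, had 325.6 pooled, with 170.4 in replicate 1 and 148.0 in replicate 2. Both replicates thus placed the same 2 promoters at the head of the group. Pooled and replicate signals come from separate lists and are not on one scale.

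Several of the next peaks were also shared between head-to-head starts. The promoter of Y55F3AR.2, a thioredoxin domain protein, and cct-8, part of the chaperonin ring that folds actin and tubulin, had 277.9 pooled, 125.8 in replicate 1 and 146.1 in replicate 2. The promoter of rpl-15, a large subunit protein, and K11H12.8 had 261.0 pooled, 129.5 in replicate 1 and 120.0 in replicate 2. The promoter of Y17G9B.5 and rpl-20, again a large subunit protein, had 253.7 pooled, 154.0 in replicate 1 and 109.4 in replicate 2. In all 3 the summit lay in the windows of both genes. tasp-1, a threonine aspartase, is divergent from K01G5.10 with starts 785 bp apart, and its peak had 212.3 pooled, 94.8 in replicate 1 and 112.1 in replicate 2. Y22D7AL.10, the 10 kDa mitochondrial heat shock protein, starts 813 bp from hsp-60, which encodes the mitochondrial chaperonin it caps. The peak between them lay only in the window of Y22D7AL.10 and had 189.7 pooled, 85.7 in replicate 1 and 102.7 in replicate 2.

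The strongest peaks at single starts, after rpl-3, were at genes of several kinds. rpl-35, of the large subunit, had 248.7 pooled and 130.5 in replicate 1, with no overlapping entry in the ranked list of replicate 2. mog-4, an RNA helicase of the spliceosome that in worms is needed for the switch from sperm to oocytes, had 236.4 pooled, 121.9 in replicate 1 and 115.4 in replicate 2. The ubiquitin ligases eel-1 and wwp-1, both of the HECT type, had pooled signals of 217.7 and 216.2. eel-1 had 105.6 in replicate 1 and 103.7 in replicate 2, and wwp-1 had 127.2 in replicate 1 and 80.2 in replicate 2. cdc-48.1, the AAA ATPase that extracts ubiquitinated proteins, had 196.8 pooled, 104.8 in replicate 1 and 94.9 in replicate 2. All of these lay upstream, with offsets from -444 to -163 bp.

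Over all 384 peaks the pooled signal had a median of 73.0, with quartiles of 59.2 and 92.6 and a range of 2.83 to 367.5. The medians of the other autosomal peaks were 63.0 in gene bodies, 70.3 between genes and 83.5 near small RNA genes, and the 43 core promoter peaks on X had 70.8. The distributions overlap widely. In the 371 core promoter peaks that overlap an entry of both replicates' ranked lists, the 2 signals had a Spearman correlation of 0.34 and a Pearson correlation of 0.57 on the log2 scale, against 0.38 and 0.57 over 933 other autosomal peaks. These points share libraries and are given as a description. The replicate summits were a median of 27 bp apart, and 327 of 371 were within 100 bp.

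**Figure D2:**
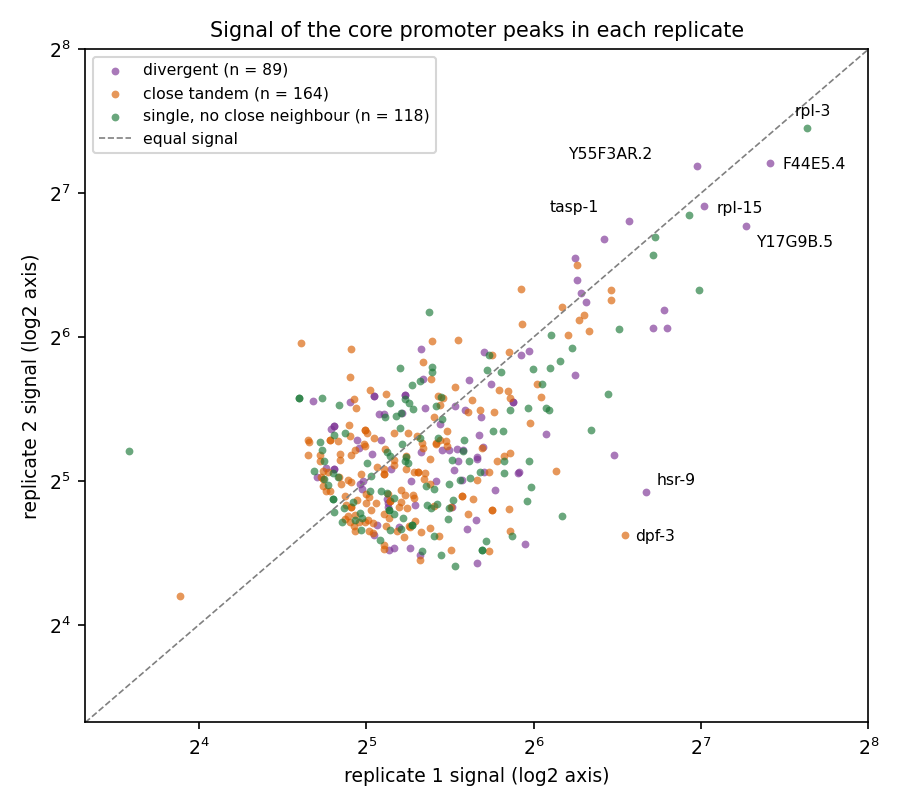
Signal of each core promoter peak in replicate 1 (x axis) and replicate 2 (y axis), both on log2 axes without units, coloured by promoter class. rpl-3 and the F44E5.4 and F44E5.5 promoter stand at the upper right, while most peaks form a cloud around medians of 39.7 in replicate 1 and 35.4 in replicate 2.

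Replicate 1 gave the higher signal in 237 of 371 core promoter peaks (63.9%) and in 68.2% of the other autosomal peaks. The largest difference was at dpf-3, a dipeptidyl peptidase, with 93.3 in replicate 1 and 24.7 in replicate 2, a log2 ratio of 1.92. The promoter of hsr-9 and rps-19, a small subunit protein, had 102.0 in replicate 1 and 30.4 in replicate 2, a log2 ratio of 1.75. B0393.8, an uncharacterized protein gene, went the other way with 12 in replicate 1 and 37 in replicate 2, a log2 ratio of -1.62. swsn-3, a subunit of the SWI/SNF chromatin remodeller, had 71.8 in replicate 1 and 27 in replicate 2, a log2 ratio of 1.41. These signals therefore rest largely on 1 library.

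Of the 384 peaks, 85 (22.1%) overlapped a peak in the thresholded lists of both single replicates, 161 (41.9%) overlapped neither, and the rest overlapped a peak in 1 of them. The rule applied to those lists themselves found 178 core promoter peaks in replicate 1 and 173 in replicate 2, with a summit at 1.25% and 1.22% of the genes. The share found in both was 29.2% at divergent starts, 19.3% at close tandem starts and 21% at the remaining single starts, against 15.8% for gene body peaks and 17.8% for intergenic peaks. Of the 384 peaks 24 had a pooled signal below both replicate signals, and 20 of these overlapped another peak of the conservative list. Their pooled values, among them the lowest of the group, are not a reliable order of strength. The 22 peaks narrower than 200 bp had a median pooled signal of 188.5, against 71.3 for the other 362, of which 360 were 300 bp wide.

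The promoters were divided into divergent starts, whose gene has a head-to-head neighbour starting within 1000 bp upstream, and single starts. Single starts were split into close tandem ones and those with no close neighbour. At a close tandem start, a gene that starts upstream on the same strand ends at most 500 bp before or 500 bp past it. Starts with no close neighbour met neither limit, but such a start can still lie beside or within another gene. The core promoter peaks lay at divergent starts in 89 cases (23.2%, interval 19 to 27.7%), at close tandem starts in 171 (44.5%, 39.5 to 49.7%) and at starts with no close neighbour in 124 (32.3%, 27.6 to 37.2%). With the limit for divergent starts set to 500 or 2000 bp, 12.2% or 38% of the peaks were divergent. All autosomal protein-coding genes were 19.6% divergent, 20.9% close tandem and 59.5% without a close neighbour. The 10668 ranked peaks in the same windows that did not pass were 14.7% divergent, 27.2% close tandem and 58.0% without a close neighbour. The peaks were thus less often at starts with no close neighbour, as defined here, than either comparison set was.

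Counted by genes, 145 of 3378 divergent genes (4.29%, 3.63 to 5.03%), 160 of 3604 close tandem genes (4.44%, 3.79 to 5.16%) and 120 of 10260 genes with no close neighbour (1.17%, 0.971 to 1.4%) had a summit in their window. One summit can lie in the windows of both divergent genes. When each summit was given only to the nearest start, the shares were 2.55%, 4.38% and 1.16%, so the divergent share depended on this choice and the tandem share changed little. All single starts together had 280 of 13864 (2.02%). Among divergent genes the share was 3.45% with starts up to 250 bp apart, 6.12% from there to 500 bp (64 of 1045), 3.58% to 750 bp and 3.35% to 1000 bp. Among close tandem genes it was 5.18% with a gap of 0 to 150 bp, 4.34% with one of 151 to 300 bp and 3.96% with a gap over 300 bp. Where the upstream gene ended past the start it was 8 of 299 (2.68%).

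At the 89 divergent starts the summit lay in the windows of both strands in 64 cases (71.9%) and between the 2 starts in 73 (82.0%). The starts were a median of 467 bp apart. Further examples with a summit in both windows were nra-2, which encodes nicalin, with lin-53, a histone-binding protein of several chromatin complexes, at 184.7 pooled, 109.6 in replicate 1 and 73.0 in replicate 2. cap-2, a subunit of the actin capping protein, with gmps-1, which makes GMP, had 180.2 pooled, 104.8 in replicate 1 and 66.8 in replicate 2. drr-2 with set-16, a histone methyltransferase, had 152.8 pooled, 75.9 in replicate 1 and 93.6 in replicate 2.

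The median pooled signal was 78.4 at divergent starts and 71.1 at all single starts, a difference of 0.14 in the median log2 signal, and the quartiles overlapped (65.3 to 102.9 at divergent and 58.2 to 90.9 at single starts). Replicate 1 medians were 45.6 at divergent and 38.5 at single starts, and replicate 2 medians were 37.7 at divergent and 34.8 at single starts. The difference was -0.0156 among the 136 peaks with the lowest irreproducibility rates, so it did not hold among the most reproducible peaks. In the lists made from a single replicate it was 0.0248 for replicate 1 and 0.0305 for replicate 2. The correlation between replicates was 0.43 at divergent, 0.27 at close tandem and 0.32 at the remaining single starts (Spearman, n = 89, 164 and 118).

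The summit lay upstream of the nearest start in 278 of 384 peaks (72.4%), with a median offset of -121.5 bp, and quartiles of -248 and 13 bp. Ranked peaks that did not pass had a median of -112 bp and were upstream in 66.8% of cases. Within 100 bp of the start lay 37.2% of the core promoter peaks and 32.0% of those ranked peaks. The 43 core promoter peaks on X had a median of -183 bp. The single-replicate lists had medians of -175.5 bp for replicate 1 and -117.0 bp for replicate 2, so the value depends on the list.

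The classes differed more from each other than the group did from the ranked peaks. Divergent summits had a median of -114 bp (quartiles -199 and -32 bp) and 83.1% were upstream, against -47 bp and 59.2% for ranked divergent peaks that did not pass. The commonest 50 bp bin of the divergent summits ran from -200 to -150 bp and held 18 of 89. Starts with no close neighbour had a median of -243 bp (quartiles -359.25 and -95.5 bp), 88.7% upstream, against -133 bp and 69.9% for their ranked counterparts, and 44 of 124 lay from -500 to -300 bp. Close tandem starts had a median of -21 bp (quartiles -170.5 and 75.5 bp) and 55% upstream, against -105 bp and 64.4%.

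**Figure D3:**
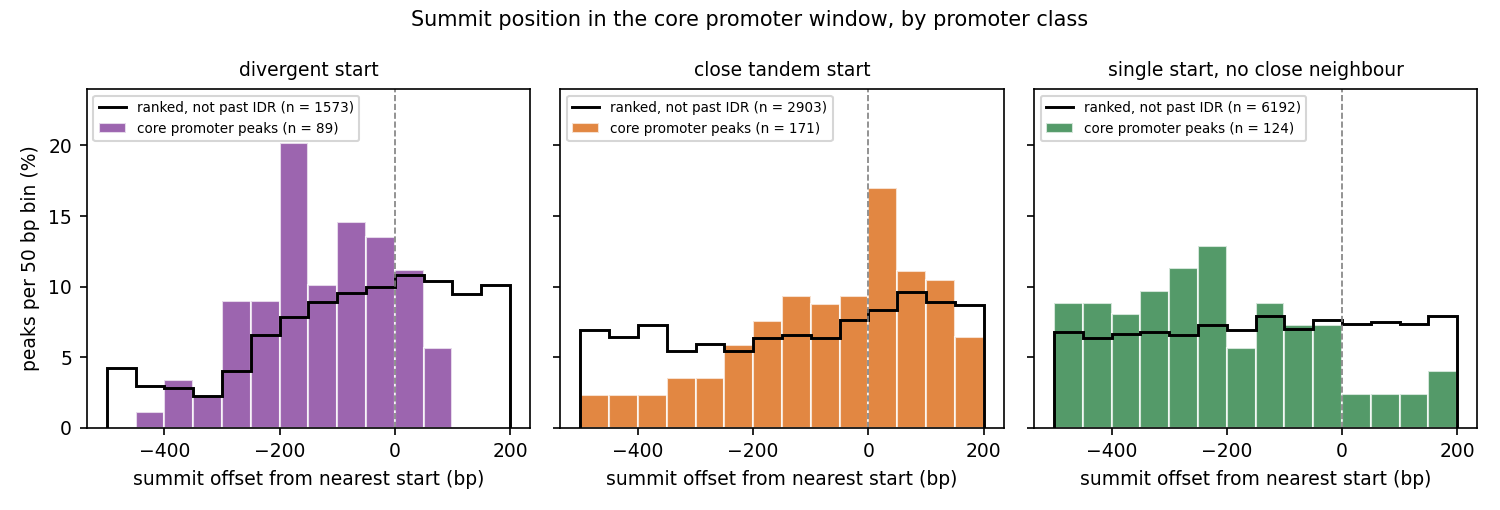
Distance of the summit from the nearest annotated start (bp, x axis, negative upstream) against the share of peaks (percent, y axis) in 50 bp bins, for the core promoter peaks and the ranked peaks that did not pass, by promoter class. Divergent summits are most frequent from -200 to -150 bp, close tandem summits around and just past the start, and summits at starts with no close neighbour spread over the upstream part.

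The annotation under the summit differed in the same way. Of all 384 summits, 241 (62.8%) lay between genes, 75 in coding exons, 28 in introns, 25 in 5' UTRs and 15 in 3' UTRs. At close tandem starts 62 of 171 summits (36.3%) were in a coding exon, against 6.74% at divergent starts and 5.65% at starts with no close neighbour, and all 15 summits in 3' UTRs were close tandem. Of the 171, 73 lay between the 2 genes, 77 past the start of the downstream gene and 21 over the upstream gene. The median gap between the genes was 125 bp, and 90 had the upstream 3' end within 150 bp. At such starts a summit within the promoter window is also a summit near the end of the neighbouring gene, and position alone cannot tell them apart.

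The strongest close tandem peak was that of ddp-1, between genes at -150 bp. kin-14, a tyrosine kinase gene, had 172.0 pooled, 80.4 in replicate 1 and 66.0 in replicate 2, with the summit 40 bp past the start in the 5' UTR. eelo-2, which has a peptidase domain, had 168.2 pooled, 88.0 in replicate 1 and 76.4 in replicate 2. C34C12.8, the mitochondrial GrpE homologue, had 132.8 pooled, 60.8 in replicate 1 and 80.7 in replicate 2, and lay at -130 bp.

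Many cytosolic ribosomal protein genes that lie upstream in a close tandem pair had a core promoter summit at the start of the next gene; the list was drawn up after the values had been seen. Of the 3581 genes that lie upstream in such a pair 158 had a core promoter summit at the start of the downstream gene, among them 11 of 22 large subunit genes and 7 of 13 small subunit genes. Ribosomal protein genes were thus 18 of the 158 upstream neighbours. These 18 pairs held 21 peaks, with the summit a median of 154 bp past the 3' end of the ribosomal protein gene (quartiles 102 and 209 bp). The 150 other close tandem peaks had a median of 149 bp past the upstream 3' end. The median distance from that end was thus alike in both. Measured from the downstream start, the median offset was 26 bp behind ribosomal protein genes (quartiles -27 and 89 bp). It was -50 bp behind other genes (quartiles -181 and 67.25 bp), so the medians differed while the quartile ranges overlapped. After rpl-29, the start of thoc-7, a THO complex subunit that links transcription to mRNA export, had 110.9 pooled, 66.0 in replicate 1 and 47.9 in replicate 2. After rpl-27, the start of egl-30, a G protein alpha subunit of the Gq type, had 102.6 pooled. After rpl-43, the start of xrn-2, the nuclear exoribonuclease, had 96.9 pooled, 43.5 in replicate 1 and 46 in replicate 2.

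Gene ends were then counted for every list with all autosomal peaks more than 200 bp from small RNA genes, in a window from 200 bp before to 500 bp past the annotated 3' end. Of the 80 ribosomal protein genes 38 (47.5%, 36.2 to 59.0%) had a summit there, against 554 of 17242 genes overall (3.21%). With a close downstream neighbour on the same strand the share was 19 of 35 (54.3%) and without one 19 of 45 (42.2%). The strongest of these was at the end of rpl-3 with 152.8 pooled, in addition to the peak upstream of its start, and 10 of the 80 genes had summits at both ends. Vacuolar ATPase genes, whose products acidify organelles, had a summit at the 3' end in 6 of 17 cases (35.3%, 14.2 to 61.7%) and at the core promoter in 0 of 17. At 3 of them the summit was also a core promoter summit of the next gene on the strand: T01H3.2 after vha-4 with 86.1 pooled, Y49A3A.3 after vha-13 with 58.8 and ubl-5 after vha-10 with 20.1. Lipid and yolk genes had 9 of 97 at the 3' end and 0 of 97 at the core promoter, while aminoacyl-tRNA synthetase genes had 0 of 32 at the 3' end and 4 of 32 at the core promoter. Further lists above 3.21% at the 3' end were respiratory chain (19.6%), core carbon (18.9%), chaperone (17.3%) and proteasome and ubiquitin genes (12.2%). Germline and oocyte RNA-binding genes had 10 of 65 there (15.4%). Other lists were below 3.21%, such as mitochondrial ribosomal proteins (2.86%) and chemoreceptors (0.156%).

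**Figure D4:**
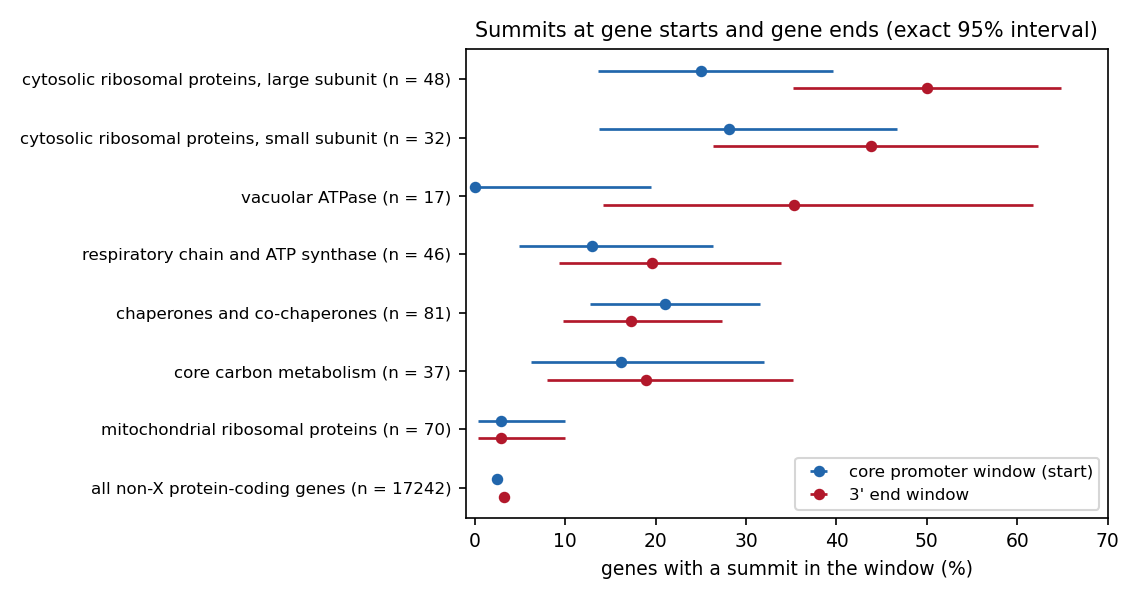
Share of genes (percent, x axis) with a peak summit at the core promoter and at the 3' end window, with exact 95% intervals, for chosen gene lists and all autosomal protein-coding genes (y axis). Large subunit ribosomal protein genes have 25% at the core promoter and 50% at the 3' end, and small subunit genes 28.1% and 43.8%. Vacuolar ATPase genes have 0 of 17 and 6 of 17, against 2.46% and 3.21% of all genes.

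Cytosolic ribosomal protein genes and chaperone genes had a core promoter summit more often than the 2.46% of all genes. Ribosomal protein genes of the large subunit had one in 12 of 48 cases (25%, 13.6 to 39.6%) and those of the small subunit in 9 of 32 (28.1%, 13.7 to 46.7%). Where each summit was given to the nearest start alone, the counts were 11 and 5. For all 80 genes the share was 26.2%, but 7.5% with the window narrowed to 250 bp upstream and 100 bp downstream, since many of these summits lay farther upstream, and in the single-replicate lists it was 22.5% for replicate 1 and 12.5% for replicate 2. The large subunit list includes rpl-24.2, whose RefSeq product is a ribosome assembly factor. The median pooled signal of their 20 peaks was 96.5. The median offset was -221.5 bp from the nearest start, which for some of these peaks was that of a neighbouring gene. Of these peaks 17 were upstream of the nearest start, and 9 (45%) overlapped both single-replicate lists. The strongest of the large subunit were rpl-3, rpl-15 and rpl-20, given above. Of the small subunit, rps-1 led with 179.5 pooled, 111.0 in replicate 1 and 66.8 in replicate 2, rps-19 shares the hsr-9 peak, and rps-24 had 109.9 pooled, 55.8 in replicate 1 and 54.2 in replicate 2. Mitochondrial ribosomal protein genes had 2 of 70 (2.86%), at mrpl-32 and mrpl-28, close to the background.

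Chaperone and co-chaperone genes had a summit in 17 of 81 cases (21%, 12.7 to 31.5%), of which 9 were divergent, 6 close tandem and 2 without a close neighbour. Genes of a divergent pair share a peak, as the 2 Hsp70 genes do. They include that pair and cct-8 described above, the chaperonin subunit cct-1, the nucleotide exchange factors bag-1 and hsp-110, the prefoldin subunit pfd-1, the constitutive Hsp70 hsp-1, and the DnaJ proteins dnj-9, dnj-13, dnj-19 and dnj-28. Their strength covered a wide range below the Hsp70 pair: dnj-9 had 77.1 in replicate 1 and 69.5 in replicate 2, and bag-1 had 141.6 pooled, 61.0 in replicate 1 and 68.1 in replicate 2.

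Respiratory chain, mitochondrial import and core carbon metabolism lists had shares between 13.0% and 16.2%. Respiratory chain and ATP synthase genes had 6 of 46 (13.0%), led by cox-5A, a subunit of cytochrome c oxidase, with 138.9 pooled, 87.0 in replicate 1 and 48.6 in replicate 2. atp-1, which encodes the ATP synthase alpha chain, had 109.8 pooled, and cox-5B had 87.2. Mitochondrial import and carrier genes had 3 of 20 (15%), at ddp-1, tomm-20 and the ADP/ATP carrier ant-1.1. Core carbon metabolism, a list of cytosolic and mitochondrial enzymes together, had 6 of 37 (16.2%), led by gpi-1, the glycolytic glucose-phosphate isomerase, at 74.3 pooled, pdha-1, of pyruvate dehydrogenase, at 66.9, and idh-1, isocitrate dehydrogenase, at 63.7. These 3 summits lay at 28, -24 and -86 bp, and their signals were near the median of the group. The core carbon list was built from symbols and takes in gsp-2, which is counted in the signalling kinase and phosphatase list too. gsp-2 is among the 37 genes but not among the 6 with a summit. By RefSeq product name, 20 of 273 genes with mitochondria in the name (7.33%) had a summit.

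In other housekeeping lists, apart from the vacuolar ATPase genes at 0 of 17, the shares ran from 14.3% for ribosome assembly to 4.84% for cytoskeletal genes. Aminoacyl-tRNA synthetase genes had 4 of 32 (12.5%), among them rars-1, gars-1 and ears-2, and nuclear pore and transport genes 5 of 40 (12.5%), among them the importins imb-3 and ima-2 and ran-5. Ribosome assembly genes had 5 of 35 (14.3%), with pro-1 at 125.0 pooled and xrn-2 at 96.9. That list was built from symbols and takes in imp-3, which RefSeq names an intramembrane protease, so at most 4 of the 5 are assembly genes. Transcription and chromatin genes had 10 of 122 (8.20%), led by set-16 and rpb-11, proteasome and ubiquitin genes 7 of 90 (7.78%), led by the conjugating enzymes ubc-6 and ubc-3 and the proteasome subunit rpn-3, and vesicle transport genes 7 of 98 (7.14%), led by the translocon subunits sec-61.G and sec-61.B.
Translation factors had 3 of 43 (6.98%, 1.46 to 19.1%), at eif-3.C, iff-2 and eef-2, and the interval includes the background. Splicing genes had 5 of 72, led by mog-4, ddx-23 and rsp-1, signalling kinases and phosphatases 4 of 60, with kin-14 and pkc-3 foremost, replication and cell cycle genes 4 of 66, led by cdc-48.1 and pcn-1, and cytoskeletal genes 3 of 62, at cap-2, tba-2 and tbb-1. The replication and cell cycle list was also built from symbols. It takes in cdc-48.1, the ATPase described above, and cdk-9, which is counted in the transcription and chromatin list too. With so few genes a list, the intervals of most of these shares overlap.

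Tissue-restricted and regulatory lists were near or below the background at the core promoter. Transcription factor families had 7 of 397 (1.76%), among them nhr-47, ztf-7 and the E2F factor efl-1, and nuclear hormone receptors 3 of 247. Genes entered the transcription factor list by symbol, ztf-7 among them, so a place in it does not give a gene's role. Germline and oocyte RNA-binding proteins had 2 of 65, at pgl-3 and oma-2, and histones 2 of 78, at his-37 and htz-1, the H2A.Z variant. Neuropeptide and channel genes had 2 of 199, collagens 1 of 145 (col-42), detoxification enzymes 1 of 176 (gst-9) and immune effectors 1 of 312 (clec-178). Sperm genes had 0 of 89. Chemoreceptor genes had 5 of 1280 (0.391%). Genes whose product is called uncharacterized had 19 of 1519 (1.25%).

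**Figure D5:**
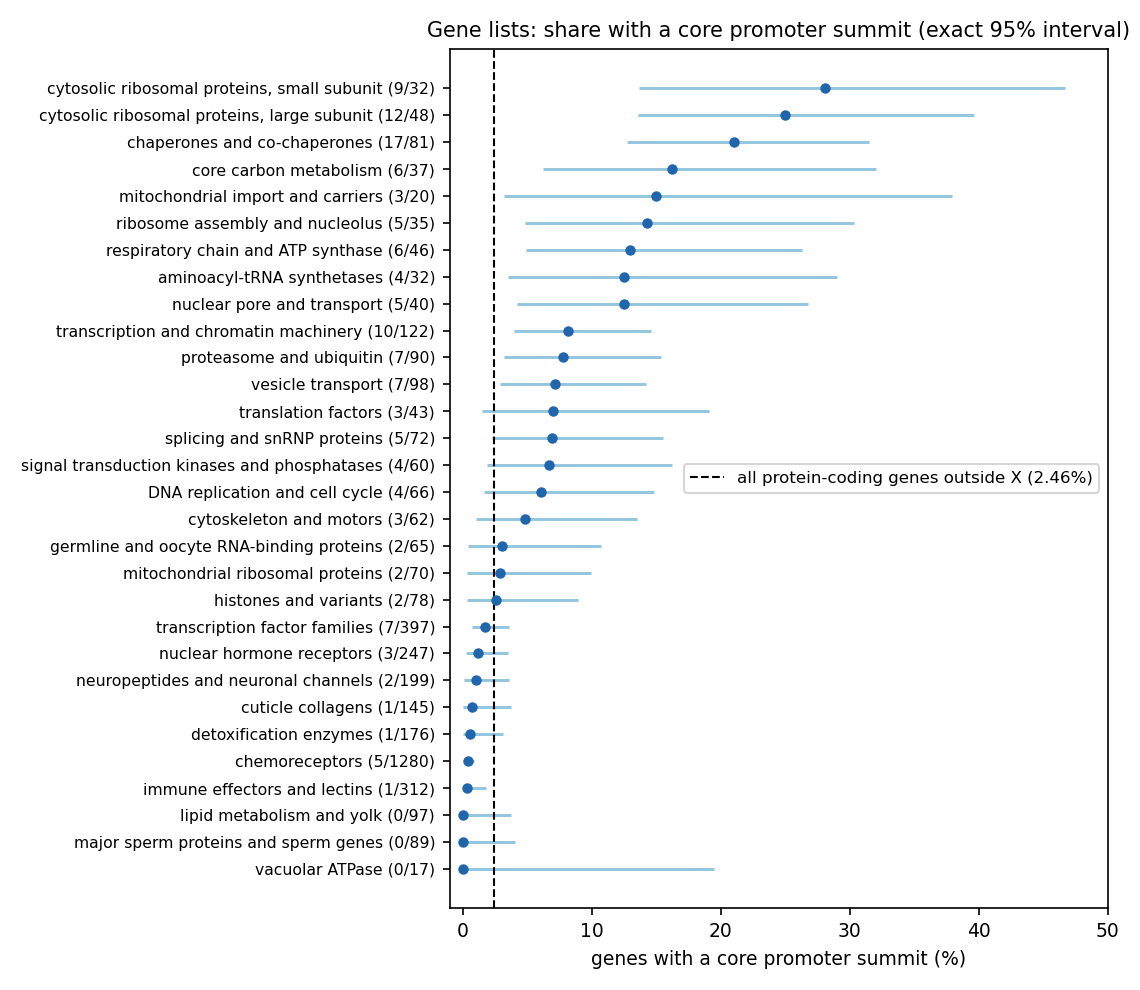
Share of the autosomal genes of each list (percent, x axis) with a core promoter summit, with exact 95% intervals, and the background of 2.46% for all genes. Ribosomal proteins (25% and 28.1%) and chaperones (21%) stand highest, and chemoreceptors (0.391%) and immune effectors (0.321%) lowest among the lists with a summit.

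By chromosome there were 82 peaks on I, 79 on II, 76 on III, 72 on IV and 75 on V, and 3.23%, 2.35%, 3.18%, 2.50% and 1.70% of the genes on these chromosomes had a summit. At the edges of the window, the last summits inside were those of rcor-1, at -495 bp with 51.6 pooled, and ubl-5, at -494 bp with 20.1, and the first outside were at Y44A6D.1, at -506 bp with 62.5, and hyl-1, at -507 bp with 3.16. On the other side rars-1, 200 bp past the start with 69.8, and algn-8, 190 bp past with 61.9, were inside, and R10E11.6, 201 bp past with 72.3, and Y22D7AL.4, 212 bp past with 16.4, were outside. Pooled signals of these 8 peaks therefore ran from 3.16 to 72.3, and those of ubl-5, hyl-1 and Y22D7AL.4 were lower than both replicate values.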

How the data were processed

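ChIP-seq peak lists of 2 biological replicates, 1 group, were analysed on assembly ce11, per the labels. Each deposited list was made by IDR, the irreproducible discovery rate, either ranked or thresholded, by its deposited name; for the aligner and the peak caller, the sources used here give none. The deposited signal of a peak is the authors' strength of enrichment with no stated normalization, the deposited score is a scaled IDR rank that is at its ceiling of 1000 for 1107 of 1687 peaks and was used only to describe the list, and the deposited −log10 IDR was used for the stricter alternative. The conservative list holds peaks at −log10 IDR of 2 or more. Every value is the authors' own for that peak; no depth or count was available.

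Members, gene lists and words were chosen with earlier results of these data known. Starts, gene bodies and small RNA genes came from Ensembl release 115 (WBcel235), and sequence and product names from RefSeq. A gene counted when a summit lay in its own window. Replicate values were taken from each replicate's own ranked list, as the overlapping entry with the nearest summit, because the input columns of the joint ranked list carry no sample name. No test between conditions was possible with 1 group. Shares have exact Clopper-Pearson 95% intervals. Flanking windows were centred 300 bp from the summit, and promoter windows at the members' median offset. No sequence from chromosome I is printed, and 2 promoters that the rules on named genes and sequences would show are not reported here.

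Named genes were the 10 strongest members, the 6 strongest at divergent and at single starts, the 3 strongest of each list, the 4 with the largest log2 difference between replicates and those beside the window's edges. Any others, the 7 stretches with the complete spaced word, the upstream neighbours of tandem pairs, the 3' end windows and the product classes were chosen after values were seen, and 5 of up to 12 strongest windows are shown. Summit positions, promoter classes and distances to small RNA genes were tested on simulated data with known answers, and the intervals were not. Python 3.11.15, numpy 2.4.6, pandas 2.3.3, scipy 1.17.1 and matplotlib 3.10.9 were used.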

Additional observations from a re-analysis of the deposited data

How the results depend on the processing

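Of 83 alternative values of the main results, 54 stayed close to the reported value, 28 moved and 1 reversed. With the window narrowed to 250 bp upstream and 100 bp downstream there were 251 peaks, a median offset of -77.0 bp, 29.9% at divergent starts, 1.57% of all genes and 7.5% of ribosomal protein genes; fewer upstream positions were admitted by construction. The wider window of 1000 and 500 bp gave 3.43% of genes, no exclusion of small RNA genes 2.74%, and the nearest start alone 2.11%. At −log10 IDR of 3 or more there were 136 peaks, 83.8% upstream, a median offset of -180.5 bp, 33.1% divergent, 0.974% of genes and 15% of ribosomal protein genes, and the log2 signal difference of divergent minus single starts reversed to -0.0156. That difference was 0.24 with replicate 1's own signals, an alternative added after seeing the data, and 0.25 with the first input of the joint list. Divergent starts held 12.2% of peaks with starts within 500 bp, 38% within 2000 bp, and 16.7% when the summit had to lie in windows of both strands. Lists made without 1 replicate gave 173 to 178 peaks, 72.8% to 83.7% upstream, offsets of -175.5 to -117.0 bp, log2 differences of 0.0248 to 0.0305, 1.22% to 1.25% of genes, and 12.5% to 22.5% of ribosomal protein genes. In those lists GCTNNCGC was in 19.7% and 22.5% of summit windows, an alternative added later. Why values moved was not tested unless stated. No paired analysis was possible because there is 1 group. Peaks rest on the authors' lists, so weaker sites were not detectable here, and depth is unknown.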
